A study of Mus musculus with 23 samples.

Results

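The 8 genes described here belong to cholesterol synthesis. Hmgcs1, Idi1, Fdft1, Sqle, Cyp51 and Dhcr7 encode enzymes of the pathway, and Srebf2 and Insig1 encode proteins that regulate it. Their rows were found by symbol: those rows of the expression table were kept whose gene name on the array was 1 of these symbols. All 8 were found, with 1 row each, among the 31395 rows tested, and all 8 passed the filter on dim signal. A row is the mean of the probes that share a transcript identifier, and its level is given as the normalized log2 intensity. The arrays came from 8 female C57BL/6 mice, which were 5 weeks old when the experiment began. For 8 weeks, SC mice (lean) were fed standard chow, while CM mice (obese) could eat either that chow or a chocolate mixture, and an 11-day series of behavioral tests came after. In some of these tests SC mice were also given the chocolate mixture. Each group was returned to its first diet before tissue was taken. RNA of frontal cortex (FC), striatum (ST) and HT was hybridized to single-color Agilent arrays, with 4 arrays per region and diet, except 3 for FC on CM. The protocol names HT the hypothalamus and the sample labels name it a thalamic region, so the abbreviation HT is kept.

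Cholesterol is built from acetyl-CoA through mevalonate and isoprene units to squalene, which is closed into lanosterol and then trimmed to cholesterol. When sterols run low in the endoplasmic reticulum, the transcription factor encoded by Srebf2 is released to the nucleus and raises transcription of the enzymes, whereas the Insig1 protein holds it back when sterols are plentiful. The brain makes its own cholesterol because lipoproteins of the blood hardly cross the blood-brain barrier, and oligodendrocytes use much of it for myelin while astrocytes supply neurons.

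Of the 10 member probes, 9 were well above local background on all 23 arrays, and the dimmer of the Fdft1 probes was so on 22. The probes matched the mm9 build at chr13:8891524-8891583 on the plus strand for Idi1, chr15:59162688-59162747 on the plus strand for Sqle, chr5:4081471-4081530 on the minus strand for Cyp51, chr7:151033874-151033933 on the plus strand for Dhcr7 and chr5:28404246-28404305 on the plus strand for Insig1. The Hmgcs1 probe was placed on an unassembled piece of chromosome 13 (positions 114793 to 114852, minus strand). Srebf2 was read by a probe at chr15:82034765-82034824 and another at chr15:82030068-82030127, both on the plus strand, with mean log2 levels of 8.93 and 6.98. Fdft1 was read by a dim probe at chr14:63764562-63764621, with a mean log2 level of 5.83, and a bright probe aligned in pieces across chr14:63765750-63769990, with a mean of 11.97, both on the minus strand. How precise each value is was limited by how many arrays each group had.

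Promoter sequence is shown for 5 members that varied together across arrays or passed a test, because the factor encoded by Srebf2 is known to act at promoters of this pathway. The windows of Dhcr7 were searched but are not shown, although it passed in HT minus FC averaged over both diets (limma, log2 difference 0.32, adjusted p = 0.00761). RefSeq promoters on GRCm38.p6 matched 6 of the 8 members, with 8 windows in all, and no promoter of Fdft1 and Sqle was in the table used. The 250 bases before the start were searched on both strands for a sterol element, TCACNCCAC, and for a CCAAT box. The motifs share the letters CCA, and neither holds the other. Capitals mark the matches, and ATTGG is CCAAT read on the other strand. The windows lie at chr13:119690101-119690350 on the plus strand for Hmgcs1, chr13:8885356-8885605 on the plus strand for Idi1, chr5:4104698-4104947 on the minus strand for Cyp51, chr15:82147019-82147268 on the plus strand for Srebf2 and chr5:28071162-28071411 on the plus strand for Insig1.
Hmgcs1: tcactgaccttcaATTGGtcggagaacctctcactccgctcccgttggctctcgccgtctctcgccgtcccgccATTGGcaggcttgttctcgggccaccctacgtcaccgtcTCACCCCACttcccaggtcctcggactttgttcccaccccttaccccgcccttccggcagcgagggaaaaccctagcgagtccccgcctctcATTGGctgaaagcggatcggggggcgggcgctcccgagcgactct
Idi1: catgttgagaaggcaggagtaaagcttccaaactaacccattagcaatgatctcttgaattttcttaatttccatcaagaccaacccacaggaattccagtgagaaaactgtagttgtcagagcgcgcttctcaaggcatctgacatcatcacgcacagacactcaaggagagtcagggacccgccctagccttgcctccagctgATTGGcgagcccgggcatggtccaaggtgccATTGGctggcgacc
Cyp51: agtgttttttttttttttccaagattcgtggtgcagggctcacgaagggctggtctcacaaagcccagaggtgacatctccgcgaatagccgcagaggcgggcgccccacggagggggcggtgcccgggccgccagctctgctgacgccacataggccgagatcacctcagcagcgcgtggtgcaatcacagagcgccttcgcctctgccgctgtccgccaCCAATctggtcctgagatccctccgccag
Srebf2: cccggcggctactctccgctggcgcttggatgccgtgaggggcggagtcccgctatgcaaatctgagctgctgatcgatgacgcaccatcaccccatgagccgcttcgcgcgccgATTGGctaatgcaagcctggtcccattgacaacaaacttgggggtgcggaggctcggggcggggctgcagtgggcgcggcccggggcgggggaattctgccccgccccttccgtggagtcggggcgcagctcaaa
Insig1: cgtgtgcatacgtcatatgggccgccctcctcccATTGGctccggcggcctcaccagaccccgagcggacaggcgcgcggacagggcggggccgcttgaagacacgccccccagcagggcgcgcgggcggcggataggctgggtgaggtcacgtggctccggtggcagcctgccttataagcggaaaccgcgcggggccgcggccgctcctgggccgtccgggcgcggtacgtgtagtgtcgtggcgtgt

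Hmgcs1 held the sterol element TCACCCCAC, 137 bases before its start, and was the only member with a match, whereas 1.05% of 32851 RefSeq promoters, and 1.22% of their genes, held one in this window. CCAAT was found in 33.8% of those promoters and 37.5% of the genes, and in 6 of the 6 members with a promoter: 3 times in Hmgcs1, 2 times in Idi1, and 1 time each in Cyp51, Srebf2 and Insig1. Dhcr7 had the letters in 1 of its 3 windows. Among 30 other pathway genes with a promoter, 0 held the sterol element and 19 held CCAAT. A match describes the letters in the window and nothing more.

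Hmgcs1 and Idi1 act in the mevalonate stage. Hmgcs1, which encodes the enzyme that makes HMG-CoA, had log2 levels on SC of 14.40, 14.19, 14.23 and 14.15 in FC, 13.78, 13.87, 13.82 and 13.69 in ST, and 13.77, 13.97, 13.91 and 14.30 in HT (replicates 52, 54, 56 and 58, the order used throughout). On CM they were 14.27, 14.33 and 14.11 in FC (replicates 54, 56 and 58, the order used for this group), 13.56, 13.80, 13.73 and 13.39 in ST, and 13.99, 14.10, 14.15 and 13.92 in HT. All 7 FC arrays lay above all 8 ST arrays, and HT reached from the ST range into the FC range. The group means ran, from high to low, FC on SC and FC on CM (both 14.24 ± 0.11 SD), HT on CM (14.04 ± 0.11), HT on SC (13.99 ± 0.22), ST on SC (13.79 ± 0.08) and ST on CM (13.62 ± 0.18) (means ± SD, n = 4, or 3 for FC on CM, here and for the other genes). Each group overlapped the next in this order.

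Idi1 encodes the isomerase that turns one isoprene unit into the other. Its log2 levels on SC were 11.48, 11.35, 11.30 and 11.25 in FC, 11.23, 11.31, 11.23 and 11.12 in ST, and 11.41, 11.62, 11.49 and 11.77 in HT. On CM they were 11.49, 11.60 and 11.40 in FC, 11.26, 11.17, 11.29 and 11.20 in ST, and 11.79, 11.77, 11.78 and 11.52 in HT. All 8 HT arrays lay above all 8 ST arrays, with FC between them and overlapping both. The order of the means was HT on CM (11.71 ± 0.13), HT on SC (11.57 ± 0.16), FC on CM (11.50 ± 0.10), FC on SC (11.35 ± 0.10), ST on CM (11.23 ± 0.06) and ST on SC (11.22 ± 0.08), and each group overlapped the next.

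Fdft1 and Sqle act at squalene. Fdft1, squalene synthase, had log2 levels on SC of 8.88, 8.87, 9.14 and 9.13 in FC, 8.85, 8.91, 8.56 and 9.02 in ST, and 8.99, 8.68, 8.77 and 9.17 in HT. On CM they were 8.73, 8.66 and 8.71 in FC, 8.92, 8.95, 9.17 and 8.81 in ST, and 8.93, 9.13, 9.10 and 8.65 in HT. The 3 FC arrays of CM mice lay below the 4 of SC mice, while the diets overlapped in ST and in HT. The means were 9.01 ± 0.15 (FC on SC), 8.96 ± 0.15 (ST on CM), 8.95 ± 0.22 (HT on CM), 8.90 ± 0.22 (HT on SC), 8.84 ± 0.20 (ST on SC) and 8.70 ± 0.04 (FC on CM), and each group overlapped the next.

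Sqle encodes squalene epoxidase, a slow step of the pathway. On SC its log2 levels were 12.56, 12.38, 12.50 and 12.66 in FC, 12.10, 12.23, 11.79 and 11.96 in ST, and 12.69, 12.63, 12.33 and 12.94 in HT. Levels on CM were 12.51, 12.39 and 12.26 in FC, 11.99, 12.05, 12.24 and 11.72 in ST, and 12.61, 12.71, 12.76 and 12.43 in HT. Both FC and HT lay above ST on all arrays, by a narrow margin between the lowest FC array (12.26) and the highest ST array (12.24). The means were 12.65 ± 0.25 (HT on SC), 12.63 ± 0.14 (HT on CM), 12.52 ± 0.12 (FC on SC), 12.39 ± 0.12 (FC on CM), 12.02 ± 0.19 (ST on SC) and 12 ± 0.21 (ST on CM), so that the step in this order fell between FC and ST and the neighbors on either side of it overlapped.

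Cyp51 and Dhcr7 act on the sterol ring. Cyp51 removes a methyl group from lanosterol, and its log2 levels on SC were 8.28, 7.98, 8.23 and 8.31 in FC, 8.11, 7.97, 7.96 and 7.88 in ST, and 8.51, 8.41, 8.42 and 8.78 in HT. The levels on CM were 8.12, 8.17 and 8.16 in FC, 8.14, 7.97, 8.08 and 7.99 in ST, and 8.68, 8.71, 8.67 and 8.53 in HT. All 8 HT arrays stood above the 15 arrays of the other regions, and FC and ST overlapped. The means were 8.65 ± 0.08 (HT on CM), 8.53 ± 0.17 (HT on SC), 8.20 ± 0.15 (FC on SC), 8.15 ± 0.02 (FC on CM), 8.04 ± 0.08 (ST on CM) and 7.98 ± 0.10 (ST on SC), and HT on SC with FC on SC was the only pair of neighbors without overlap.

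Dhcr7 carries out the last reduction on 1 of the routes to cholesterol. Its log2 levels ran from 8.69 to 9.49 on 22 arrays and reached 10.04 on the ST array of SC replicate 58, whose neighbors in the group were 8.81, 8.92 and 8.78. The means were 9.22 ± 0.24 (HT on SC), 9.16 ± 0.06 (HT on CM), 9.14 ± 0.61 (ST on SC), 8.97 ± 0.22 (FC on SC), 8.93 ± 0.08 (ST on CM) and 8.73 ± 0.06 (FC on CM), and neighbors overlapped except ST on CM with FC on CM.

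Among the regulators, Srebf2 had log2 levels on SC of 8.03, 7.97, 8.25 and 8.30 in FC, 8.06, 8.21, 8.02 and 8.67 in ST, and 7.77, 7.48, 7.85 and 7.92 in HT. On CM they were 7.76, 7.76 and 8.00 in FC, 8.03, 8.01, 8.06 and 8.04 in ST, and 7.74, 7.84, 7.88 and 7.39 in HT. The 8 HT arrays lay below the 8 ST arrays, the reverse of the order seen for Idi1, Sqle and Cyp51. The means were 8.24 ± 0.30 (ST on SC), 8.14 ± 0.16 (FC on SC), 8.03 ± 0.02 (ST on CM), 7.84 ± 0.14 (FC on CM), 7.76 ± 0.19 (HT on SC) and 7.71 ± 0.22 (HT on CM), and only ST on CM with FC on CM did not overlap among neighbors.

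Insig1 had log2 levels on SC of 9.11, 9.02, 9.17 and 9.42 in FC, 8.72, 9.41, 8.77 and 9.12 in ST, and 9.76, 9.61, 9.26 and 9.55 in HT. Its CM levels were 8.98, 9.22 and 8.94 in FC, 8.86, 9.11, 8.98 and 8.91 in ST, and 9.5, 9.40, 9.47 and 9.34 in HT. HT arrays were high as a group, but ST replicate 54 (9.41) and FC replicate 58 (9.42) of the SC mice reached into their range. The order of the means was HT on SC (9.54 ± 0.21), HT on CM (9.43 ± 0.07), FC on SC (9.18 ± 0.17), FC on CM (9.05 ± 0.15), ST on SC (9 ± 0.32) and ST on CM (8.97 ± 0.11), and each group overlapped the next.

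**Figure D1:**
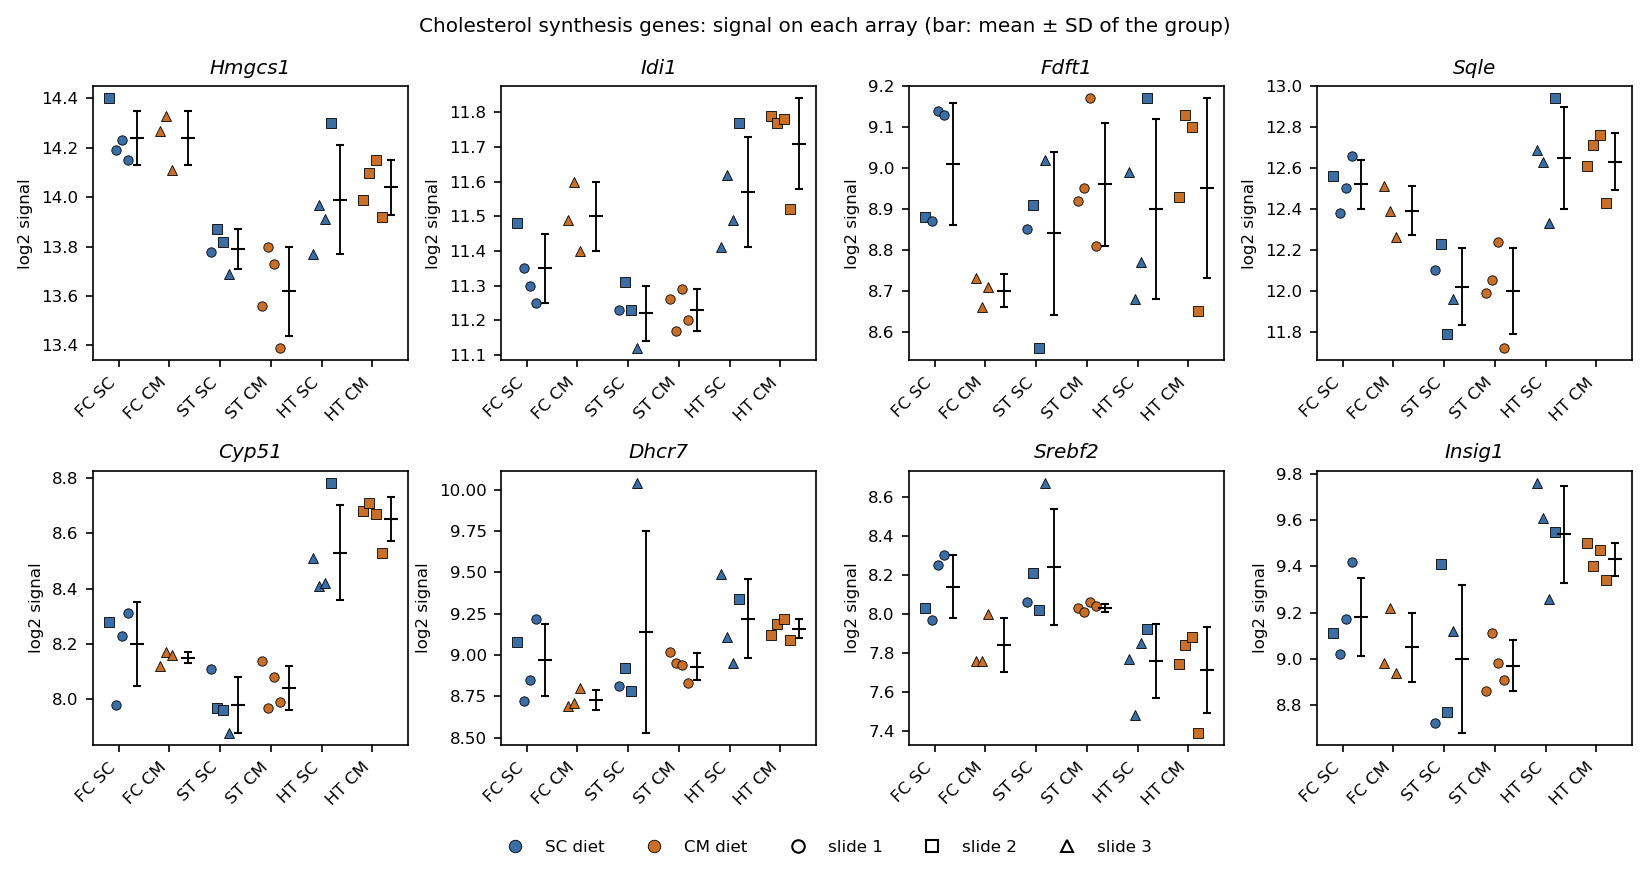
Normalized log2 intensity of each of the 8 genes (vertical axis) in the 6 groups of region and diet (horizontal axis), with 1 point per array colored by diet and shaped by slide, and bars for the mean ± SD. The 8 HT points of Cyp51 sit between 8.41 and 8.78, above all FC and ST points, and the ST point of Dhcr7 at 10.04 stands apart.

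HT was compared with ST on SC to ask how the pathway differs between regions of lean mice. Here 4 of the 8 members were called higher and 0 lower (limma, adjusted p under 0.05), beside 21.5% of all rows called, 10.7% higher and 10.8% lower, and 5 members had an unadjusted p under 0.05. Cyp51 was 1.43-fold higher in HT (log2 difference 0.52, SE 0.10, 95% interval 0.31 to 0.72, adjusted p = 0.000564), in 4 of 4 HT arrays against all ST arrays. Sqle was 1.53-fold higher (0.61, SE 0.17, interval 0.26 to 0.96, adjusted p = 0.0113), again without overlap. Insig1 was 1.43-fold higher (0.52, SE 0.16, interval 0.20 to 0.84, adjusted p = 0.0203) with overlap, and Idi1 1.24-fold (0.31, SE 0.10, interval 0.10 to 0.53, adjusted p = 0.0359) without. The called genes thus came from the mevalonate, squalene and sterol stages and from the regulators. Hmgcs1 (0.15), Fdft1 (0.12) and Dhcr7 (0.20) did not pass the test. Srebf2 had a log2 difference of -0.38 that missed the threshold (adjusted p = 0.0851), although its HT and ST arrays did not overlap. Its 2 probes differed, with -0.62 (adjusted p = 0.00572) for the dimmer and -0.14 (adjusted p = 0.674) for the brighter. The median log2 difference of the members was 0.26, beside 0.03 over all rows, and the median size was 0.35 beside 0.22. The fit gives each array 1 weight, the same for all genes, so a fitted difference can depart from that of the plain means.

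The call of Cyp51 held without any 1 array (log2 difference 0.46 to 0.57, adjusted p 0.000242 to 0.00155). For fits with 1 array left out, here and below, the share of all rows called is not given. A change in a count of genes called there cannot be told from a change over all rows. ST replicate 56 of the SC mice had the lowest or nearly the lowest level of Sqle, Insig1 and Fdft1 in its group, and a larger weight in the fit (1.06) than the other ST arrays on SC (0.222 to 0.522). Without it the log2 difference of Sqle was 0.38 (adjusted p = 0.136), that of Insig1 0.18 (adjusted p = 0.461) and that of Idi1 0.27 (adjusted p = 0.107). The 2 members then called were Cyp51, higher, and Srebf2, newly called lower (-0.48, adjusted p = 0.0427). Srebf2 was also called without HT replicate 58 on CM (-0.38, adjusted p = 0.0416) and in the fit without array weights (-0.48, adjusted p = 0.0145). Idi1 also missed the threshold without ST replicate 52 (adjusted p = 0.0663) or 58 (0.0551), or HT replicate 54 (0.0704), 56 (0.0562) or 58 (0.0597), all on SC. Insig1 missed it without ST replicate 52 (0.37, adjusted p = 0.134), where 2 members were called, or HT replicate 52 (0.42, adjusted p = 0.0578). Over the single arrays left out, adjusted p ran from 0.000959 to 0.136 for Sqle, from 0.000438 to 0.461 for Insig1 and from 0.0137 to 0.107 for Idi1. Averaged over both diets, 6 members were called beside 51.4% of all rows: Cyp51 (0.56), Sqle (0.61), Idi1 (0.40), Insig1 (0.49) and Hmgcs1 (0.29) higher and Srebf2 (-0.33, adjusted p = 0.00477) lower. Over all other settings the adjusted p of Srebf2 ran from 0.00477 to 0.674.

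ST was compared with FC on SC for the same question. The fitted log2 differences of all 8 members were negative, from -0.57 to -0.01, with a median of -0.24 beside 0 over all rows, and a median size of 0.24 beside 0.22. The shared sign was that of the weighted fit, while the plain means of Dhcr7 (9.14 in ST, 8.97 in FC) and Srebf2 (8.24 and 8.14) were higher in ST. Sqle alone of the 8 was called, 1.48-fold lower in ST (-0.57, SE 0.18, 95% interval -0.95 to -0.19, adjusted p = 0.0408), beside 14.9% of all rows called, 7.71% higher and 7.22% lower. Its ST and FC arrays did not overlap. Hmgcs1 did not overlap either, but its log2 difference of -0.41 (SE 0.14, interval -0.70 to -0.12) missed the threshold at an adjusted p of 0.0545. In all, 3 members had an unadjusted p under 0.05, the last being Cyp51 (-0.23, adjusted p = 0.153). Without ST replicate 56 of the SC mice the log2 difference of Sqle was -0.34 (adjusted p = 0.299), and the call was also lost without ST replicate 52 (adjusted p = 0.0799) or FC replicate 54 (0.053), 56 (0.052) or 58 (0.088) on SC. Adjusted p of Sqle ran from 0.00452 to 0.299 over the arrays left out. Conversely, 3 members were called without ST replicate 54 on SC, and 2 without HT replicate 58 on SC, FC replicate 58 on CM or ST replicate 58 on CM. Averaged over both diets, Hmgcs1 (-0.51, adjusted p = 6.28e-05), Sqle (-0.46, adjusted p = 0.00213) and Idi1 (-0.18, adjusted p = 0.0465) were lower in ST, beside 33.9% of all rows called, while the differences of Dhcr7 (0.11) and Srebf2 (0.09) were positive and not called. Hmgcs1 was called in 9 of 15 other settings, with an adjusted p from 6.28e-05 to 0.0706.

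Between HT and FC on SC, Cyp51 was 1.22-fold higher in HT (log2 difference 0.28, SE 0.09, 95% interval 0.09 to 0.47, adjusted p = 0.0163) and Srebf2 was 1.34-fold lower (-0.42, SE 0.14, interval -0.72 to -0.12, adjusted p = 0.0224). Both were without overlap between the 4 HT and 4 FC arrays. These were 2 of 8 members, 1 in each direction, beside 43.2% of all rows called, 22.8% higher and 20.4% lower. A further 2 had an unadjusted p under 0.05: Idi1 (0.23, adjusted p = 0.0654) and Hmgcs1 (-0.26, adjusted p = 0.0845). The median log2 difference was 0.11 beside 0.02 over all rows, and the median size, 0.24, was below the 0.32 of all rows. Without FC replicate 54 of the SC mice, the lowest FC array of Cyp51, its log2 difference was 0.22 (adjusted p = 0.0654). Srebf2 missed the threshold without HT replicate 54 (-0.33, adjusted p = 0.0788) or FC replicate 56 (adjusted p = 0.051) on SC, and in each of these 3 cases 1 member was called. Over the arrays left out, adjusted p ran from 0.012 to 0.0654 for Cyp51 and from 0.00865 to 0.0788 for Srebf2. Averaged over both diets, 6 members were called beside 52.8% of all rows, with Cyp51 (0.40), Insig1 (0.32), Dhcr7 (0.32) and Idi1 (0.22) higher and Srebf2 (-0.25) and Hmgcs1 (-0.23) lower in HT. The region comparisons share their SC arrays in pairs, so their values stand side by side and are not independent.

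**Figure D2:**
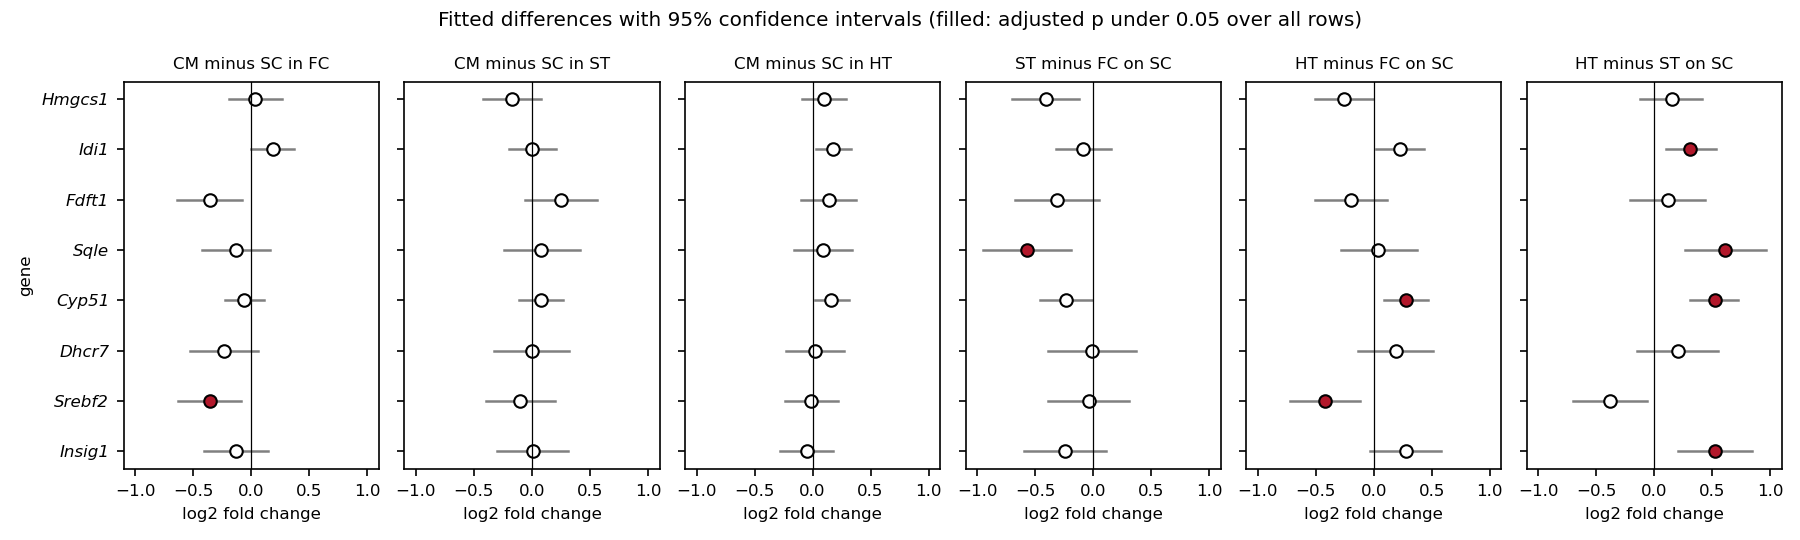
Log2 difference of each of the 8 genes (horizontal axis) in the 3 diet and 3 region comparisons, with the 95% interval of the fit and filled points for an adjusted p under 0.05. Cyp51, Sqle, Insig1 and Idi1 are filled in HT minus ST, and Srebf2 alone of the 8 is filled in a diet comparison, CM minus SC in FC.

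The main question of the study was the diet. Across the 3 regions, the 24 diet effects on the members lay between -0.36 and 0.25 on the log2 scale, the largest being 1.28-fold, and all 24 intervals lay within 1 log2 unit of 0 (bounds -0.64 to 0.56). In FC, Srebf2 fell on CM by 1.28-fold (-0.36, SE 0.13, 95% interval -0.63 to -0.09, adjusted p = 0.0444), with CM replicate 58 at 8.00 overlapping SC replicate 54 at 7.97. It was the only 1 of 8 members called, beside 28.6% of all rows, 15.4% higher and 13.2% lower. Fdft1 had a log2 difference of the same size (-0.36, SE 0.13, interval -0.64 to -0.08) and its 3 CM arrays lay below its 4 SC arrays, but it missed the threshold at an adjusted p of 0.0514. Idi1 (0.19, adjusted p = 0.116) was the third member with an unadjusted p under 0.05. The other members ranged from -0.24 (Dhcr7) to 0.03 (Hmgcs1). The median of the members was -0.13 beside -0.04 over all rows, and their median size, 0.16, was below the 0.23 of all rows. At the study's thresholds for FC (2-fold, adjusted p under 0.01), 0 members were called by limma, beside 2.94% of all rows.

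The call of Srebf2 in FC rested close to the threshold. It was lost without any 1 of 13 arrays: the 4 FC arrays on SC, FC replicates 54 and 56 on CM, ST replicates 52 and 54 on SC, HT replicate 52 on SC or the 4 ST arrays on CM. Its adjusted p in these cases ran from 0.0501 to 0.138, and its log2 difference over all 23 from -0.42 to -0.30. Fdft1 was called without ST replicate 56 or HT replicate 58 on SC, or HT replicate 54, 56 or 58 on CM, where 2 members were then called, and without ST replicate 56 on CM, where Srebf2 was lost. Its adjusted p ran from 0.0244 to 0.117 over the arrays left out. The 2 probes of Srebf2 gave like log2 differences on either side of the threshold, -0.35 (adjusted p = 0.0989) for the brighter and -0.36 (adjusted p = 0.0411) for the dimmer. Those of Fdft1 differed, with -0.53 (adjusted p = 0.0182) for the dim probe and -0.18 (adjusted p = 0.374) for the bright probe.

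In ST, 0 members were called on CM against SC by limma, with 0 at an unadjusted p under 0.05, beside 9.82% of all rows called, 3.45% higher and 6.37% lower. These shares depended on the array weights: without them limma called 0.319% of all rows in ST and 11.6% in FC. The log2 differences ran from -0.17 (Hmgcs1) to 0.25 (Fdft1), with a median size of 0.08 beside 0.18 over all rows. In HT, 0 members were called by limma, beside 0.43% of all rows, 0.124% higher and 0.306% lower, and 2 had an unadjusted p under 0.05: Idi1 (0.18, adjusted p = 0.283) and Cyp51 (0.16, adjusted p = 0.296). The other 6 members in HT lay between -0.05 (Insig1) and 0.14 (Fdft1), and the median size was 0.10, the same as over all rows. At the study's thresholds 0 members were called by limma in either region, beside 0.602% of all rows in ST and 0.178% in HT. A p that misses the threshold does not show that the diets gave equal levels.

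Whether the diet effect differed between regions was tested directly. Fdft1 was the only member called, with a diet effect in FC lower than in ST by 0.61 on the log2 scale (-0.61, SE 0.20, 95% interval -1.03 to -0.18, adjusted p = 0.0291), beside 30.1% of all rows called. Between FC and HT its difference was -0.49 (adjusted p = 0.0551, called in 7 of 23 fits with 1 array left out and in 2 of 14 other settings), and 0 members were called by limma, with 1 at an unadjusted p under 0.05, beside 20% of all rows. Between ST and HT, 0 members and 0% of all rows were called by limma, with 0 members at an unadjusted p under 0.05. For Srebf2 the difference in diet effect was -0.26 between FC and ST (adjusted p = 0.34) and -0.35 between FC and HT (adjusted p = 0.161). The latter was -0.55 by its dimmer probe (adjusted p = 0.0295) and -0.14 by its brighter probe (adjusted p = 0.664). For Fdft1 between FC and HT, the dim probe gave -0.72 (adjusted p = 0.0218) and the bright probe -0.26 (adjusted p = 0.359). Between FC and ST these were -0.95 (adjusted p = 0.00607) and -0.25 (adjusted p = 0.408), so that only the dim probe passed in either. The FC and ST difference of Fdft1 missed the threshold without ST replicate 52 (adjusted p = 0.0507), ST replicate 56 (-0.43, adjusted p = 0.115) or FC replicate 56 (adjusted p = 0.0521) on SC, or FC replicate 56 (adjusted p = 0.053) or ST replicate 56 (adjusted p = 0.0604) on CM. Adjusted p ran from 0.00815 to 0.115 over the arrays left out.

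The arrays were on 3 slides. The FC arrays of CM mice were all on slide 3 and those of SC mice on slides 1 and 2, so no slide held both diets in FC. Diet and slide therefore cannot be told apart within FC for Srebf2 and Fdft1. With the slide as a block, which takes its effect from the other regions, limma called 0 of 31395 rows in any diet comparison, with an unadjusted p under 0.05 for 2219 rows in FC (1 member), 1408 in ST (0 members) and 845 in HT (0 members). Srebf2 in FC then had a log2 difference of -0.50 (adjusted p = 0.777). Over the other settings its adjusted p ran from 0.0268 to 0.777. The Fdft1 difference between FC and ST was -0.28 with that block (adjusted p = 1), its adjusted p running from 0.0196 to 1. In HT, slide 2 held the 4 CM arrays and 1 SC array, and there all 8 members were lower on CM, from -0.06 (Idi1) to -0.31 (Sqle), whereas the fitted diet effects of 6 of the 8 were positive. That SC array, replicate 58, had a summed level of thalamus markers of 13.86 (log2), against 15.2 to 15.94 on the 4 CM arrays. The part of these markers in the differences was not tested. In ST, slide 1 held the 4 CM arrays and 1 SC array, with differences from -0.16 (Hmgcs1) to 0.24 (Insig1).

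The region comparisons on SC could be made within slides, though each rested on 1 to 3 arrays a side. On slide 2 the only HT array was replicate 58, whose thalamus marker sum was 13.86. On slides 2 and 3, HT minus ST was 0.81 and 0.57 for Cyp51, 0.93 and 0.60 for Sqle, 0.51 and 0.38 for Idi1 and 0.46 and 0.43 for Insig1. Each of these 4 genes thus kept its sign on both slides. Srebf2 gave -0.19 and -0.97, and Dhcr7 gave 0.50 and -0.86, the latter set by the ST array at 10.04 on slide 3. ST minus FC on slides 1 and 2 was -0.41 and -0.55 for Sqle and -0.41 and -0.56 for Hmgcs1. HT minus FC, with 1 array a side on slide 2, was 0.50 for Cyp51 and -0.11 for Srebf2. With the slide as a block, the log2 difference of Cyp51 was 0.66 against ST (adjusted p = 0.000991) and 0.48 against FC (adjusted p = 0.03). That block ended the calls of Insig1 in HT minus ST (0.47, adjusted p = 0.189), Sqle in ST minus FC (-0.48, adjusted p = 0.0781) and Srebf2 in HT minus FC (-0.56, adjusted p = 0.194), and it brought a call of Hmgcs1 in ST minus FC (-0.48, adjusted p = 0.0166). Over the other settings adjusted p ran from 1.16e-07 to 0.0131 for Cyp51 in HT minus ST and from 3.75e-06 to 0.0639 in HT minus FC. It ran from 0.000185 to 0.189 for Insig1, from 0.00213 to 0.0781 for Sqle and from 0.0178 to 0.194 for Srebf2 in the comparisons just named.

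**Figure D3:**
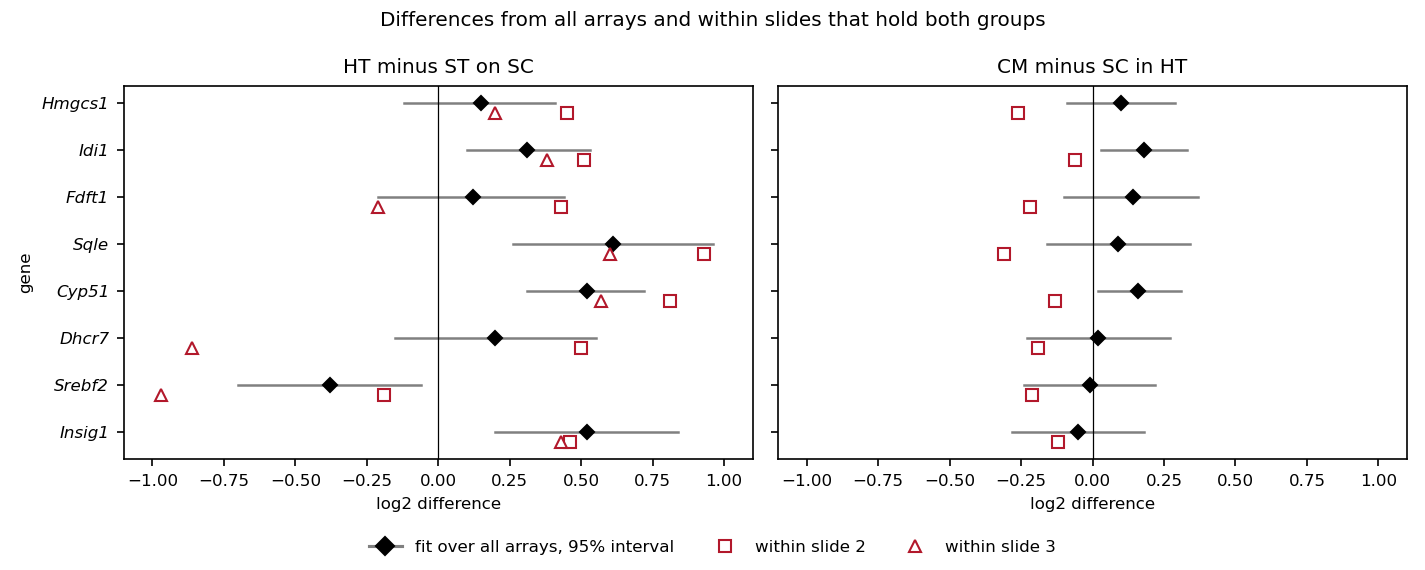
Log2 difference of each of the 8 genes (horizontal axis) for HT minus ST on SC and for CM minus SC in HT, as fitted with the 95% interval and as the difference of means within slide 2 or 3. For Cyp51 in HT minus ST the fit gives 0.52 and the slides 0.81 and 0.57, whereas for CM minus SC in HT all 8 values within slide 2 are below 0.

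Among themselves, the members varied together to differing degrees over the 23 arrays, which share mice, regions and slides. The mean Pearson r over their 28 pairs was 0.275, from -0.634 to 0.864, with 8 pairs above 0.5 and 6 below 0, beside a mean of 0.0012 over all rows. Idi1 with Cyp51 (0.864) and Sqle with Cyp51 (0.818) were the closest, and Idi1 with Srebf2 (-0.634) the most opposed. With the group means subtracted, which leaves variation among arrays of 1 region and diet, the mean was 0.345, from -0.188 to 0.762, with 11 pairs above 0.5 and 4 below 0, beside 0.00115 over all rows. The closest pairs were then Fdft1 with Srebf2 (0.762), Hmgcs1 with Idi1 (0.756), Fdft1 with Sqle (0.736) and Dhcr7 with Srebf2 (0.689), so that Srebf2 was opposed to Idi1 across regions and close to Fdft1 within groups. Over all 23 arrays, Sqle followed the mean of the 8 members, itself included, most closely (r = 0.895), then Insig1 (0.812) and Cyp51 (0.794), with Srebf2 at -0.091. With the group means subtracted Fdft1 was closest (0.887), and Srebf2 was at 0.70.

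**Figure D4:**
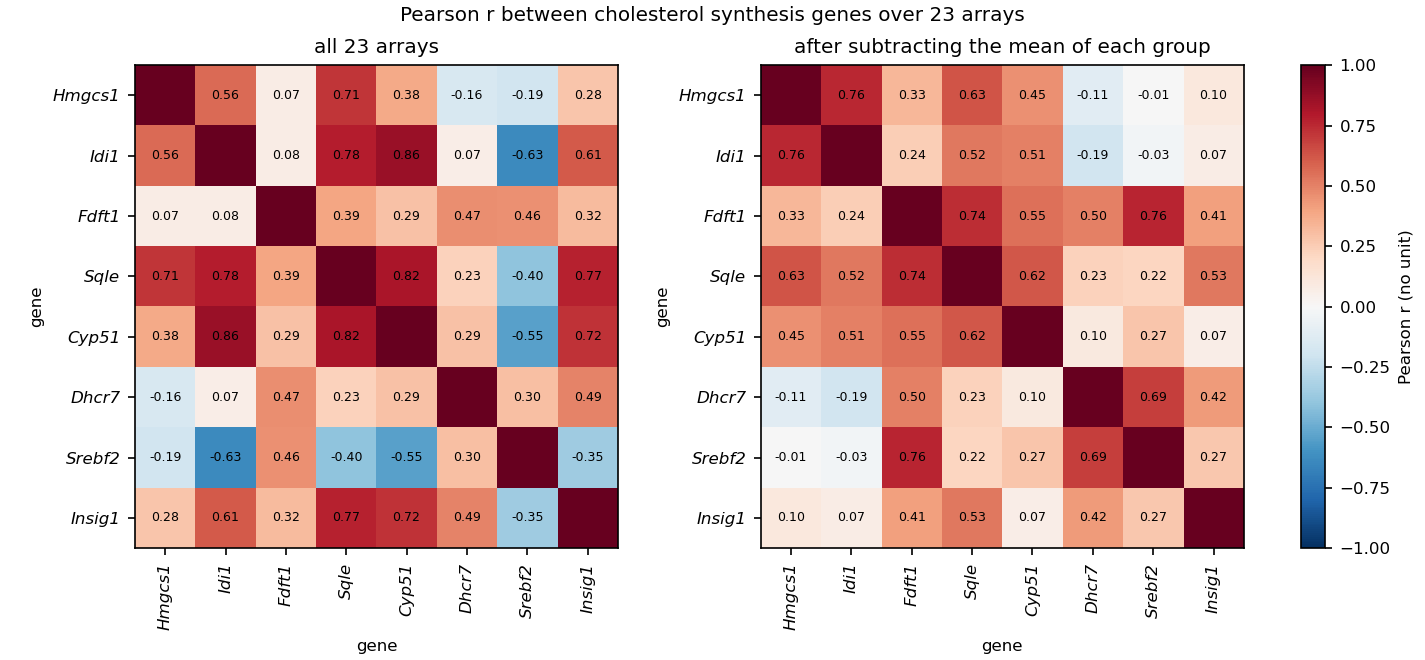
Pearson r between each pair of the 8 genes over 23 arrays, as measured and with the 6 group means subtracted, on a color scale. Idi1 and Cyp51 reach 0.864 as measured, and Fdft1 and Srebf2 reach 0.762 with the group means subtracted.

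The genes most like the mean of the 8 members over 23 arrays, among 21458 named rows, were Foxp4 (r = 0.917), Slc5a5 (0.887), Camsap3 (0.886, named 2310057J16Rik on the array), Pemt (0.883) and Fdps (0.879), the last an enzyme of the same pathway. With group means subtracted they included Rfxap (0.881), Ldha (0.869), Fdps (0.859) and Ninl (0.854). These r values describe the arrays measured and carry no test.

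The mean of the 8 members, each centered on its own mean over the 23 arrays, was on SC 0.09, -0.08, 0.07 and 0.16 in FC, -0.18, -0.04, -0.28 and 0.05 in ST, and 0.16, 0.05, -0.02 and 0.33 in HT (log2). ST replicates 52 and 56 were low within their group, and HT replicate 58 was high. On CM it was -0.07, -0.04 and -0.09 in FC, -0.17, -0.14, -0.08 and -0.28 in ST, and 0.15, 0.22, 0.24 and -0.03 in HT, with replicate 58 lowest in each region.

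Markers of cell types and regions were read beside these values. The summed level of the 5 frontal cortex markers (most abundant Slc17a7) was 10.67, 13.09, 10.58 and 12.82 in ST on SC and 11.44, 12.08, 11.75 and 9.28 in ST on CM (log2), against 12.91 to 13.81 in FC. It moved with the member mean in ST: replicates 52 and 56 on SC and 58 on CM were low in both. The same 3 arrays had the highest thalamus marker sums in ST (13.70, 13.41 and 13.29, against 11.77 to 12.54 on the others), and ST replicate 58 on CM had a choroid plexus marker sum of 18.27, against 11.78 to 13.99 on the other ST arrays of CM mice. The part of these markers in the ST values of Sqle and Insig1 was not tested. In FC, the summed level of the 6 striatum markers (most abundant Ppp1r1b) was 13.46, 15.27, 15.73 and 15.68 on SC and 13.43, 13.72 and 15.69 on CM, against 17.31 to 18.41 in ST. The sum was low on SC replicate 52 and on CM replicates 54 and 56. Srebf2 in FC was low on the last 2 (both 7.76), but it was 8.03 on SC replicate 52 and 8.00 on CM replicate 58, where the sum was high, and the part of these markers in its fall was not tested. On CM in FC, 0 of the 6 differences were positive (median -1.14), and limma called 1 lower, Drd2 (-1.58, adjusted p = 0.0258), beside 13.2% of all rows. ST replicate 52 on SC had a hypothalamus marker sum of 16.55 (most abundant Hcrt), against 10.18 to 11.46 on the other ST arrays of SC mice. In HT, that sum was low on SC replicate 54 (14.55, against 17.34 to 18.17 on the others) and on CM replicate 58 (15.32, against 17.36 to 17.62). These 2 arrays also had the lowest HT levels of Srebf2 (7.48 and 7.39) and of Fdft1 (8.68 and 8.65). HT replicate 58 on SC, which had the highest member mean (0.33), had a thalamus marker sum of 13.86. That sum was 15.41 to 15.71 on the other HT arrays of SC mice. Its hypothalamus marker sum was the highest in HT (18.17). The part of these markers in the HT values was not tested. The summed neuron markers (most abundant Syt1) were 17.92, 17.86, 17.98 and 17.79 in ST on CM, below the 18 to 18.23 on SC, with 1 of 8 differences positive (median -0.24) and Snap25 called lower (-0.49, adjusted p = 0.00895), beside 6.37% of all rows.

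The 12 oligodendrocyte markers were higher than in FC for 11 of 12 in both ST and HT on SC, with 1 lower in HT, whereas between HT and ST limma called 0 higher and 1 lower (0 and 2 at an unadjusted p under 0.05). Their summed log2 level was 16.84, 17.50, 17.88 and 17.19 in FC, 18.43, 18.04, 18.64 and 18.11 in ST, and 18.32, 18.21, 18.45 and 18.19 in HT on SC. The marker called lower in HT than in ST was Mbp (-0.94, adjusted p = 0.000622), and 3 of the 12 differences were positive, with a median of -0.14. Over all rows, 7.71% were higher in ST than in FC, 22.8% were higher in HT than in FC, and 10.8% were lower in HT than in ST. Without ST replicate 56 on SC, 4 of 12 were higher in ST than in FC and 1 was higher in HT than in ST. Without ST replicate 54 on SC 2 were lower in HT than in ST, and without FC replicate 56 on SC 0 were lower in HT than in FC. On CM the sums were 16.87, 17.20 and 17.04 in FC, 18.53, 18.41, 18.37 and 18.58 in ST, and 18.56, 18.42, 18.53 and 18.60 in HT. In FC the diet comparison called 5 of 12 lower and 1 higher, beside 13.2% and 15.4% of all rows. Those lower included Mag (-0.92), Cnp (-0.91) and Mobp (-0.90), and the 1 higher was the brighter row of Mbp (0.42, adjusted p = 0.0433). The other row of Mbp, not counted among the 12, was called lower (-0.41, adjusted p = 0.00883). These counts became 3 lower and 2 higher without FC replicate 56 and 8 lower without FC replicate 52 on SC. The call of a higher marker was lost without FC replicate 54 or 58, or ST replicate 54 or 58, on SC, or FC replicate 54 or 56 on CM. All of these diet calls in FC were lost with the slide as a block. Other markers called on CM in FC were Gfap (-0.90, adjusted p = 0.045, and -1.09 for its other row, adjusted p = 0.0178) and Aldh1l1 (-0.33, adjusted p = 0.00949) of the 8 astrocyte markers and Nefl (-0.43, adjusted p = 0.00823) of the 8 neuron markers, all lower, and Pecam1 (0.52, adjusted p = 0.00192) of the 4 endothelial markers, higher. The differences of 4 of the 8 astrocyte and 4 of the 8 neuron markers were positive, with medians of -0.04 and -0.02. The part of all these markers in the values of Srebf2 and Fdft1 in FC, and of the members in HT and ST, was not tested. In tissue RNA, fewer cells of a type and less RNA per cell cannot be told apart.

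Of the other lists in HT against ST, 3 of 8 astrocyte markers were higher and 1 lower, 2 of 8 neuron markers were higher and 2 lower, and 5 of 5 microglia markers were lower, while 0 of 4 endothelial and 0 of 4 choroid plexus markers were called by limma (1 and 0 at an unadjusted p under 0.05). These counts stand beside 10.7% of all rows higher and 10.8% lower in HT than in ST. The part of these markers in the HT values of the members was not tested. Most markers of the labeled regions were high where the labels place them. In HT, 6 of 8 hypothalamus markers and 6 of 6 thalamus markers were higher than in FC, and 3 of 8 and 6 of 6 were higher than in ST, so HT held both kinds. All 6 striatum markers were higher in ST than in FC and lower in HT than in ST, and 3 of 6 were lower in HT than in FC. Of the 5 frontal cortex markers, 5 were lower in HT than in FC and 3 were lower in ST than in FC. Over all rows, 22.8% were higher and 20.4% lower in HT than in FC. In ST against FC the shares were 7.71% and 7.22%. Sim1 was above background on 0 of 4 FC arrays of SC mice. The cortex marker Emx1 was so on 4 of 4 HT arrays on SC, at a mean log2 level of 5.41 beside 9.69 in FC, and on 0 of 4 on CM.

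A wider list of 39 genes of cholesterol handling, all measured, was set beside the members: 15 other synthesis enzymes, 7 regulators, 9 genes of uptake and 8 of efflux and turnover. In HT against ST on SC, 5 were higher and 4 lower, beside 10.7% and 10.8% of all rows. Of the synthesis enzymes, 2 of 15 were higher and 0 lower: Pmvk, which acts on mevalonate (0.59, adjusted p = 6.15e-05), and Sc5d, which acts on the sterol ring (0.34, adjusted p = 0.00758). The sterol transporter Abcg4 (0.66, adjusted p = 1.1e-05) and the regulator Srebf1 (0.46, adjusted p = 0.0209) were also higher. Among those lower in HT were the protease gene Mbtps1, whose product helps release the Srebf2 factor (-0.55, adjusted p = 0.00673), Cyp46a1, which turns brain cholesterol into an exported oxysterol (-0.58, adjusted p = 0.015), and the transporter Abcg1 (-0.31, adjusted p = 0.0239). Without HT replicate 56 on SC, Srebf1 (0.44, adjusted p = 0.0609), Mbtps1 (-0.40, adjusted p = 0.0588) and Abcg1 (-0.26, adjusted p = 0.102) missed the threshold, which left 2 lower. Abcg1 also missed it without ST replicate 52 (-0.24, adjusted p = 0.106), ST replicate 56 (-0.19, adjusted p = 0.2) or HT replicate 58 (-0.27, adjusted p = 0.0506) on SC, and 9 were higher without ST replicate 54 on SC. The slide as a block ended the calls of Srebf1 (0.32, adjusted p = 0.306), Mbtps1 (-0.57, adjusted p = 0.0558) and Abcg1 (-0.19, adjusted p = 0.386). With only the arrays of the compared groups, Sc5d (0.34, adjusted p = 0.0627), Cyp46a1 (-0.59, adjusted p = 0.0502) and Abcg1 (-0.3, adjusted p = 0.129) were not called by limma. Abcg1 also missed the threshold without array weights (-0.24, adjusted p = 0.0763), and Srebf1 with the slide as a random block (0.4, adjusted p = 0.0575).

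In ST against FC on SC, 3 of the 39 were higher and 3 lower, beside 7.71% and 7.22% of all rows. Abcg1 (0.57, adjusted p = 0.00216), the lipoprotein receptor gene Vldlr (0.60, adjusted p = 0.0134) and Mbtps1 (0.47, adjusted p = 0.0421) were higher. Among those lower, as Sqle was, were the receptor gene Lrp8 (-0.81, adjusted p = 0.0051) and the protease gene Mbtps2 (-0.49, adjusted p = 0.04). Without ST replicate 56 on SC, Vldlr (0.29, adjusted p = 0.256), Lrp8 (-0.57, adjusted p = 0.0827), Mbtps1 (0.51, adjusted p = 0.0743) and Mbtps2 (-0.18, adjusted p = 0.543) missed the threshold, and limma called 1 of the 39 higher and 0 lower. Without ST replicate 54 on SC, 7 were higher and 12 lower. Vldlr was also not called without ST replicate 52 on SC (0.48, adjusted p = 0.0502), and 1 was then higher. With only the arrays of the compared groups, Vldlr (0.6, adjusted p = 0.0844), Lrp8 (-0.82, adjusted p = 0.0598) and Mbtps2 (-0.48, adjusted p = 0.15) were not called by limma. Mbtps1 was lost as well without ST replicate 52 or 58 or any FC replicate on SC or ST replicate 56 on CM (0.45 to 0.48, adjusted p from 0.0508 to 0.0786). The slide as a random block also ended the calls of Mbtps1 (0.51, adjusted p = 0.0531) and Mbtps2 (-0.49, adjusted p = 0.0791). Mbtps2 was lost without ST replicate 52 (-0.42, adjusted p = 0.111) or 58 (-0.49, adjusted p = 0.0504) or FC replicate 52 (-0.46, adjusted p = 0.0544) or 56 (-0.37, adjusted p = 0.165) on SC, and also with the slide as a block (-0.47, adjusted p = 0.0864).

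In HT against FC on SC, 10 of the 39 were higher and 8 lower, beside 22.8% and 20.4% of all rows. By role, 3 of 9 uptake genes were higher and 2 lower, 2 of 7 regulators were higher and 2 lower, and 1 of 15 synthesis enzymes was higher and 3 lower. Of the 8 efflux and turnover genes, 4 were higher and 1 lower, with Abcg4 (0.62, adjusted p = 6.17e-06) and Cyp27a1, an oxysterol-forming enzyme (0.86, adjusted p = 0.000512), among the higher. Srebf1 (0.80, adjusted p = 6.8e-05) and Npc2, which carries cholesterol out of lysosomes (0.56, adjusted p = 0.00166), were higher. Lrp8 (-0.56, adjusted p = 0.00484) and Mbtps2 (-0.41, adjusted p = 0.0193) were among those lower. Mbtps2 missed the threshold without FC replicate 56 (-0.28, adjusted p = 0.143) or HT replicate 56 (-0.33, adjusted p = 0.0999) on SC. The slide as a block ended the calls of Lrp8 (-0.39, adjusted p = 0.393), Mbtps2 (-0.33, adjusted p = 0.445) and Npc2 (0.65, adjusted p = 0.0689) in HT against FC. The count lower was 4 without HT replicate 56 and 5 without HT replicate 54, FC replicate 56 or FC replicate 58 on SC.

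In FC, limma called 0 of the 39 higher on CM and 9 lower (0 and 12 at an unadjusted p under 0.05), beside 15.4% and 13.2% of all rows: 3 of 15 synthesis enzymes, 2 of 7 regulators, 2 of 9 uptake genes and 2 of 8 efflux and turnover genes. Among these were the nuclear sterol receptor gene Nr1h3 (-0.46, adjusted p = 0.002), Cyp27a1 (-0.72, adjusted p = 0.00217) and Npc1, the lysosomal partner of Npc2 (-0.45, adjusted p = 0.00585). They lay on the same side as Srebf2 and Fdft1. Each gene was counted by its brightest row. For the uptake gene Lrp1, limma called a dimmer row higher (0.58, adjusted p = 0.031), whereas the counted row was at -0.1 (adjusted p = 0.363). For the regulator Insig2, a dimmer row was called lower (-0.34, adjusted p = 0.0357), whereas the counted row was at -0.05 (adjusted p = 0.736). Over the arrays left out, 6 to 10 of the 39 were lower. As for Srebf2, the slide and the diet cannot be told apart here. With the slide as a block all of these calls were lost, with Nr1h3 at -0.13 (adjusted p = 0.964). In ST, Soat1, which esterifies cholesterol for storage, rose on CM (0.54, adjusted p = 0.0348), and Acat2, which joins acetyl-CoA units, fell (-0.54, adjusted p = 0.0149). Soat1 missed the threshold without ST replicate 58 on SC (adjusted p = 0.0664) or ST replicate 52 (0.0734), 54 (0.0617) or 58 (0.0657) on CM, and 8 of the 39 were higher without ST replicate 54 on SC. Soat1 and Acat2 were the only calls among the 39 in ST, beside 9.82% of all rows. Both were lost with the slide as a block, at 0.12 for Soat1 and -0.29 for Acat2 (adjusted p = 1 for both), as they were with the slide as a random block (adjusted p of 0.254 and 0.157). Both were also lost without array weights (0.0578 and 0.0514) and with only the arrays of the compared groups (0.0797 and 0.0745). Soat1 was lost as well with the processed signal (adjusted p = 0.099) and without a filter on dim signal (0.0509). In HT, 0 of the 39 were called by limma in either direction, with 3 at an unadjusted p under 0.05.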

How the data were processed

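Per the file headers, the deposited scanner files hold single-color (Cy3) spot intensity from Agilent Feature Extraction 10.7.3.1, with probes placed on mm9. The authors also deposited log2 values after normexp background correction and quantile normalization. These were rebuilt from the median spot intensity (largest difference from the deposited log2 values 5e-09). A row was kept if its signal was above 1.1 times the negative controls' 95th percentile on 4 or more arrays, and probes sharing an identifier were averaged. The median raw intensity was 85 to 129, beside a background of 26 to 30. limma 3.58.1 (R 4.3.3, data.table version 1.17.8, statmod 1.5.0) fitted 6 group means to 23 arrays with 1 weight per array and a random block for the mouse, and p-values were adjusted by Benjamini-Hochberg over 31395 rows and called at 0.05. The fit was tested on simulated arrays with independent noise, no slide or mouse effect, and a change in FC on CM only. Such a test cannot show how slides or unequal arrays affect the calls. Motifs were counted with Python 3.11 and plots drawn with matplotlib 3.10.9. The 8 members matched RefSeq by accession, 8 of 8. All 8 were tested in every comparison. Of the 39 other pathway genes, up to 4 called per direction with the smallest adjusted p were named, and the 5 rows with the highest Pearson r to the members' mean. Some genes chosen by these rules or held in the lists count in the totals but are not reported here. The members and lists were chosen with earlier results of these data known. Alternatives covered slide, block, weights, background, normalization, filter, probes and each array left out.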

Additional observations from a re-analysis of the deposited data

Results flagged for a closer look

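In HT on CM, Idi1 was 11.52 on replicate 58 and between 11.77 and 11.79 on the other 3 arrays, so the gap to the nearest array was 0.96 of the range of the group, above Dixon's 95% critical value for 4 samples. The same array stood apart in the summed markers of hypothalamus (15.32, against 17.36 to 17.62) and of choroid plexus (13.89, against 9.28 to 11.01). In ST on SC, Dhcr7 was 10.04 on replicate 58 and 8.92 on the nearest array, a gap of 0.887 of the range, and that array had the lowest weight among the 4 in the group (0.222). In all 40 groups of 4 arrays were examined in this way and 2 exceeded the critical value, where chance alone gives about 1 in 20 for independent groups. The groups of different genes share arrays, so they are not independent, and the cause of these gaps was not tested. The diet effect on Fdft1 differed between FC and ST, with a difference of -0.61 on the log2 scale (SE 0.20, adjusted p = 0.0291). The effect was -0.36 in FC and 0.25 in ST, and neither passed the test within its own region. The call was lost with the slide as a fixed block (-0.28, adjusted p = 1), with the slide as a random block (-0.59, adjusted p = 0.208) and by the bright probe alone (-0.25, adjusted p = 0.408), and diet and slide cannot be told apart within FC.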

How the results depend on the processing

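No member changed sign among its called values in any setting, and across all tested member values 49 newly passed the threshold and 62 no longer did. The counts of members called were 1 in the FC diet comparison, 0 in ST, 0 in HT, 1 in ST minus FC, 2 in HT minus FC, 4 in HT minus ST and 1 for the difference in diet effects. With the slide as a fixed block they were 0 in FC, 1 in HT minus FC and 0 for the difference, beside 0%, 14.8% and 0% of all rows. With the slide as a random block they were 0 in FC, 0 in ST minus FC, 1 in HT minus FC and 0 for the difference. In the same order, 6.36%, 9.43%, 27.8% and 6.85% of all rows were then called, against 28.6%, 14.9%, 43.2% and 30.1% in the main fit. For all rows the difference is that between FC and ST, here and below. Without array weights, and with the processed signal scaled to the 75th percentile, they were 0 in FC, 2 in ST minus FC and 0 for the difference. The shares of all rows were 11.6%, 16% and 20% without weights, and 32.3%, 16.8% and 32.8% with the processed signal. REML weights gave 2 in ST minus FC, beside 17.4% of all rows. The mean signal with offset 50 gave 2 in ST minus FC and 0 for the difference, beside 16.9% and 32.4% of all rows. Without a filter on dim signal there were 0 in FC, 0 in ST minus FC and 0 for the difference, beside 18.8%, 9.51% and 20.4% of all rows. With spots well above background there were 2 in FC and 2 in ST minus FC, beside 33.5% and 19.1%. The brightest probe of each gene, chosen after seeing the data, gave 0 in FC, 1 in HT minus FC and 0 for the difference. Of all probes, 28.5%, 41.4% and 30.2% were then called. The deposited table, also chosen after seeing the data, moved none of these counts by over 1.5 times. The study's thresholds gave 0 in FC. The arrays of the compared groups alone gave 0 in ST minus FC, 1 in HT minus FC and 2 in HT minus ST, and the 1 call in FC passed from Srebf2 (-0.35, adjusted p = 0.0702) to Fdft1 (-0.35, adjusted p = 0.0338). With those arrays alone limma called 19.9% of all rows in FC and 0% in ST (7568 rows at an unadjusted p under 0.05). It called 4.18% in ST minus FC, 41.4% in HT minus FC and 17.7% in HT minus ST. Averaging both diets gave 3 in ST minus FC and 6 in HT minus FC, beside 33.9% and 52.8% of all rows. The cause of these changes was not tested.

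With 1 array left out, the counts ran from 0 to 2 in FC, 0 to 0 in ST and in HT, 0 to 3 in ST minus FC, 1 to 3 in HT minus FC, 2 to 5 in HT minus ST and 0 to 2 for the difference. Shares of all rows are not given for these fits, so these ranges cannot be told from changes over all rows. SC and CM mice share numbers in the labels, which do not say how the numbers were assigned. Arrays with the same number correlated at -0.321 to 0.136 over 11 pairs, and 2 of the 11 were closest to their own number. The replicate block on that number gave 1 in FC, 1 in ST minus FC (Hmgcs1, with Sqle at adjusted p = 0.0514), 3 in HT minus FC, 4 in HT minus ST and 1 for the difference. In the same order, 29.3%, 13.5%, 42.2%, 21% and 28.6% of all rows were called. Leaving the mouse out as a block gave 2 in ST minus FC, beside 16% of all rows. With the processed signal the share of calls that were higher moved from 53.7% to 68.5% in FC, from 35.1% to 22.1% in ST, from 28.9% to 9.75% in HT and from 51.7% to 62.6% in ST minus FC, and the median of all rows in HT minus FC moved from 0.02 to 0.12. Quantile normalization within regions was not run for region comparisons, and values within slides have no counts. From 61.4% to 71.3% of gene spots per array were well above background, which limits what dimmer probes can show.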
